A study of Mus musculus with 94 samples.

Results

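The receptors of vascular endothelial growth factor (VEGF) and of the angiopoietins were examined in single cells of the adipose tissue around the mouse aorta. The 6 genes Flt1, Kdr, Nrp1, Nrp2, Tek and Tie1 were chosen by name among the 16069 genes of the deposited matrix, and all 6 were found in it. The matrix holds 85 of 94 described cells, each 1 SMART-seq library from a single primary PV-ADSC (perivascular adipose tissue-derived mesenchymal stem cell) of c57/bl mice aged 8 weeks, and there is 1 untreated group. The cells had been sorted without culture as CD144-/CD45-/CD29+/Sca1+ events. As no animal is named for any cell, all cells were treated as 1 sample, and every comparison between groups of cells is a description without a test. The cells were parted at a deposited Dcn value of 1000, where Dcn encodes decorin, a matrix proteoglycan made by fibroblasts. This gave 58 cells at or above the threshold, called stromal, and 27 below it, called other cells.

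VEGF acts on endothelial cells, the lining of blood vessels, through receptor tyrosine kinases. Kdr (VEGFR2) carries most of the signal for growth, migration and permeability, whereas Flt1 (VEGFR1) binds VEGF tightly with a weaker kinase and can act as a decoy. Nrp1 and Nrp2, the neuropilins, have no kinase, serve as co-receptors for VEGF and also bind class 3 semaphorins together with plexins. Tek (Tie2) is the receptor of the angiopoietins, which keep vessels quiescent or loosen them, and Tie1 is its partner, which does not bind angiopoietins by itself with high affinity. Kdr, Flt1, Tek and Tie1 are classed as endothelial genes, although Tek has also been described in other cells, and neuropilins are found in many cell types.

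The promoters of the 4 tyrosine kinase receptors are shown because these genes are known as endothelial genes and yet differed in how many cells held them. Each is the 250 bases before the annotated start, from RefSeq on GRCm38.p6, on the strand of the gene, and all 6 members matched the table. Capitals mark every match to GGAAG (the core bound by ETS factors), GATAA (GATA core), ACGTG (hypoxia response core), GGGCGG (GC box) or TATAAA on either strand. The sequences lie at chr5:147726012-147726261 (minus strand) for Flt1, chr5:75978456-75978705 (minus) for Kdr, chr4:94739039-94739288 (plus) for Tek and chr4:118489850-118490099 (minus) for Tie1.
Flt1: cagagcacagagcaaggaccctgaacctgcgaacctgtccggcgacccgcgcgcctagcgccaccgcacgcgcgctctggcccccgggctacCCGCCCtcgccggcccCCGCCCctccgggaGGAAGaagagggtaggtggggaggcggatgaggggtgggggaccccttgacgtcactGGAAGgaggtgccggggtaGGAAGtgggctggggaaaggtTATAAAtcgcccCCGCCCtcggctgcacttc
Kdr: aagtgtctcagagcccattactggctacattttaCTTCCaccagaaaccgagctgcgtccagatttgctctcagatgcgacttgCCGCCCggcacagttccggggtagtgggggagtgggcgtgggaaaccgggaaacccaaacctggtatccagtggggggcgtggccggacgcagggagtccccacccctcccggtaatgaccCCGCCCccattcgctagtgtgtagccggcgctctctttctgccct
Tek: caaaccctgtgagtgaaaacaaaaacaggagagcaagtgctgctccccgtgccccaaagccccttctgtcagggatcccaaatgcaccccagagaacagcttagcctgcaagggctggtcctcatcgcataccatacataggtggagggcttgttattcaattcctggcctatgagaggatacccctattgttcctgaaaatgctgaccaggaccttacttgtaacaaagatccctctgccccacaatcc
Tie1: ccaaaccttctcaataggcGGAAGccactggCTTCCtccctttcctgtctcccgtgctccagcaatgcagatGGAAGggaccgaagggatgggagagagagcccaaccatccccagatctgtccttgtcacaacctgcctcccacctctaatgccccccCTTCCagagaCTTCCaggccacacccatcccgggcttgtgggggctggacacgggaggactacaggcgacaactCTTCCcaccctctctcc

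Flt1 held 3 matches to GGAAG, 3 to GGGCGG and 1 to TATAAA. Kdr held 1 to GGAAG and 2 to GGGCGG. Tie1 held 6 to GGAAG and none of the other 4 motifs, whereas Tek held none of the 5. Among 32851 promoters of the same length, 64.1% held GGAAG, 32.7% GGGCGG, 12.4% TATAAA, 22.6% GATAA and 16.6% ACGTG. The share of G and C was 70.4% for Flt1, 61.6% for Kdr, 60.4% for Tie1 and 51.2% for Tek, compared with a median of 52.4%. A match is a run of letters and was not tied to binding of any factor, since nothing was measured at these promoters.

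The deposited values are normalized read counts in which groups of genes carry a factor of their own in each cell, and dividing by that factor gave whole recovered reads. Recovered reads are used for detection, and the deposited values for mean levels on the log2(value + 1) scale. The cells held between 1146945 and 4776510 recovered reads (median 2847986). The stromal cells had a median of 2963854 reads and 2813 genes above 0, and the other cells 2714449 reads and 1416 genes. Shares are given with exact 95% Clopper-Pearson intervals, which cover counting error only and not variation between animals, and reads without molecular identifiers are not independent molecules. Endothelial markers that are no members (Cdh5, Cldn5, Ecscr, Egfl7, Emcn, Eng, Erg, Esam, Pecam1, Sox17 and Sox18) summed to a median of 5260 CPM of recovered reads in the other cells (range 0 to 12600) and 1.72 in the stromal cells (0 to 1920). At least 3 of these 11 markers reached 100 reads in 19 of 27 other cells and in 1 of 58 stromal cells. Cdh5, which encodes the CD144 protein that the sort excluded, was above 0 in 23 of 27 other cells and 7 of 58 stromal cells. It reached 10 reads in 21 other cells and 1 stromal cell. Most other cells thus held RNA of a gene whose protein the sort excluded. The sort stained for protein, which was not measured here, so the RNA does not test that part of the label. Of the other genes of the gate, Ly6a (Sca1) was above 0 in 73 of 85 cells and Itgb1 (CD29) in 47.

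A pair of cells stood between the groups. Cell 50 counted as stromal by a deposited Dcn value of 6521.4, but this came from 69 reads multiplied by a factor of 94.5. Every other stromal cell held between 18172 and 282890 Dcn reads, and the cells below the threshold held between 4 and 248. Cell 50 was also the shallowest library, with 1146945 reads and 850 genes above 0. It held 6 reads of Col3a1, 9796 of Fabp4 and 1393 of Gpihbp1, and the last 2 genes are known from capillary endothelium. Fabp4 was, however, above 0 in 82 of 85 cells. Of other capillary markers, cell 50 held 1317 reads of Cd36 and 287 of Aqp1, but none of Rgcc or Car4. None of the 11 endothelial markers reached 100 reads in it. Cell 34 was stromal by Dcn (73060 reads), yet 4 of the 11 endothelial markers reached 100 reads in it. Just inside the threshold lay cell 50, cell 61 (11184.9) and cell 68 (23960.4), and just outside it cell 20 (269.0), cell 48 (239.2) and cell 58 (88.2). Shares and levels that these cells moved are given with and without them.

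Flt1, the high-affinity VEGF receptor, was the receptor found in the most other cells. Its reads ranged from 0 to 9787 (median 916.0) in the 27 other cells, and from 0 to 1134 (median 0) in the 58 stromal cells. It was above 0 in 21 of 27 other cells (77.8%, interval 57.7% to 91.4%) and 10 of 58 stromal cells (17.2%, 8.59% to 29.4%). At 10 reads or more it was found in 20 other cells (74.1%, 53.7% to 88.9%) and 2 stromal cells (3.45%, 0.42% to 11.9%), as 8 of the 10 stromal cells held only 2 to 5 reads. The 2 stromal cells above that level were cell 34 with 1134 reads and cell 93 with 113, so without cell 34 the stromal share was 1 of 57 (1.75%). The mean of log2(value + 1) was 7.14 ± 4.53 (SD, n = 27 cells) in the other cells and 0.61 ± 1.85 (n = 58) in the stromal cells (0.43 ± 1.26 without cell 34). The mean deposited value was 36.1 times higher in the other cells, and 315 times higher without cell 34, which held 89.3% of the stromal reads of Flt1. Without cell 56, the other cell with the most reads, it was 31.3 times higher. The highest deposited value was in cell 62 (8382.8, compared with 5645.5 in cell 56), and the ratio without cell 62 was not computed.

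Kdr, the main signaling receptor of VEGF, ranged from 0 to 18725 reads (median 308.0) in the other cells and from 0 to 16197 (median 0) in the stromal cells. It reached 10 reads in 15 of 27 other cells (55.6%, 35.3% to 74.5%) and 5 of 58 stromal cells (8.62%, 2.86% to 19%). Of the stromal cells, cell 18 held 303 reads, cell 29 held 576, cell 34 held 584, cell 68 held 1127 and cell 50 held 16197, which left 3 of 56 (5.36%, 1.12% to 14.9%) without cells 34 and 50. The highest stromal level was therefore in the cell whose stromal assignment rested on 69 Dcn reads, and the deposited Kdr value of that cell was 255.0 because its factor was 0.0157. Scaled to exon length and to depth (RPKM of recovered reads), Kdr averaged 127 ± 220 (SD, n = 27) in the other cells and 28.5 ± 205 (n = 58) in the stromal cells, which fell to a mean of 1.59 without cell 50. In mean log2(value + 1) the groups were at 6 ± 5.47 and 0.81 ± 2.59 (0.52 ± 2.10 without cells 34 and 50). The mean deposited value was 31.1 times higher in the other cells. It was 33.1 times higher without cell 50, and 22.3 times without cell 10, the other cell with the most reads.

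**Figure D1:**
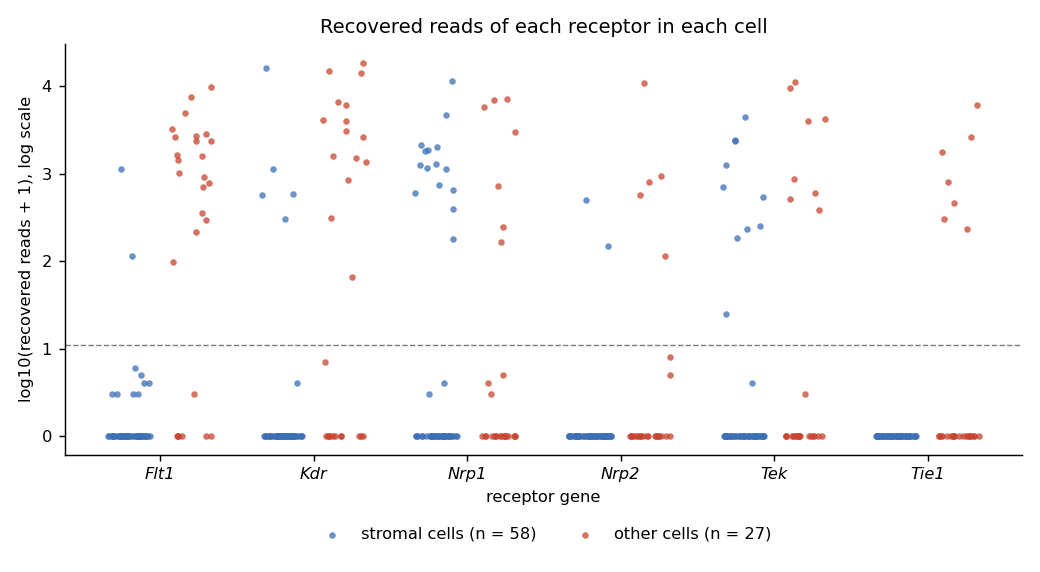
Recovered reads of the 6 receptors, as log10(reads + 1), with 1 point for each cell, stromal cells (n = 58) in blue and other cells (n = 27) in red, and a dashed line at 10 reads. Flt1 reached the line in 20 other and 2 stromal cells, and Nrp1 in 7 and 15, whereas Tie1 was at 0 in all stromal cells.

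Nrp1 was the receptor that did not follow this division. It ranged from 0 to 7134 reads in the other cells and from 0 to 11450 in the stromal cells, with a median of 0 in both. It reached 10 reads in 7 of 27 other cells (25.9%, 11.1% to 46.3%) and in 15 of 58 stromal cells (25.9%, 15.3% to 39%). Stromal cells with the gene held a median of 1249.0 reads and other cells with the gene 3029.0. The mean of log2(value + 1) was 2.94 ± 4.72 in the other cells and 2.73 ± 4.60 in the stromal cells, a difference of 0.21. The differences of Kdr (5.19), Tie1 (2.57), Tek (1.77) and Nrp2 (1.73) were also below the SD over the other cells. The SD is a spread over cells and does not set Nrp1 apart. The ratio of mean deposited values was 1.34, with 0.978 without cell 58, the other cell with the most reads, and 2.07 without cell 72, the stromal cell with the most, so no direction is given for Nrp1. Of all its reads, 43.4% lay in the other cells, compared with 97.4% for Flt1.

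Nrp2, the second neuropilin and a co-receptor of VEGF-C in lymphatic endothelium, was rarer. It reached 10 reads in 5 of 27 other cells (18.5%, 6.3% to 38.1%) and in 2 of 58 stromal cells. The other cells with the gene held 114, 569, 800, 937 and 11034 reads, and 2 more held 4 and 7. The stromal cells were cell 39 with 150 reads and cell 91 with 505. A single cell, cell 19, held 81.9% of the Nrp2 reads of the other cells. The mean deposited value was 44.2 times higher in the other cells with cell 19 and 8.28 times without it, and 190 times higher without cell 91, the stromal cell with the most reads.

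Tek, the angiopoietin receptor, was found on both sides of the threshold. It reached 10 reads in 8 of 27 other cells (29.6%, 13.8% to 50.2%) and 10 of 58 stromal cells (17.2%, 8.59% to 29.4%). In the other cells the reads were 383, 516, 596, 876, 4018, 4245, 9556 and 11222. In the stromal cells they were 24, 183, 234, 253, 537, 703, 1267, 2384, 2423 and 4480. The 2 ranges overlapped, and the stromal cells with Tek had a lower median (620.0 reads, compared with 2447.0). The mean of log2(value + 1) was 3.38 ± 5.26 in the other cells and 1.61 ± 3.51 in the stromal cells. The mean deposited value was 11.3 times higher in the other cells, and 8.63 times without cell 19, which held the most reads. The highest deposited value was in cell 58 (24793.1, compared with 12188.3 in cell 19). The ratio leans on cell 58 as well, and its value without that cell was not computed. None of the 10 stromal cells with Tek held any of the 11 endothelial markers at 100 reads, and neither did 42 of the 48 stromal cells without Tek. The 10 cells held between 3 and 7 of the 7 stromal markers other than Dcn (median 5.0, compared with 6.0 in the 48 stromal cells without Tek). Pdgfrb, a receptor of pericytes and fibroblasts, reached 10 reads in 4 of these 10 cells and in 18 of all 58 stromal cells.

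Tie1, the partner of Tek, was found in the other cells alone. It was above 0 in 7 of 27 of them (25.9%, 11.1% to 46.3%), with 231, 307, 463, 809, 1765, 2675 and 6128 reads. It was at 0 in all 58 stromal cells, which allows a share of up to 5.17% by a limit of 3 cells of the total, and the exact interval reached 6.16%. Cell 62 held 49.5% of its reads. With a floor of 3 reads over the stromal group in place of 0, the mean value was 8860-fold higher in the other cells. Without cell 62 it was 4650-fold higher. These ratios rest on the floor and are no lower limit. A stromal cell with 231 reads, the fewest of any cell with the gene, would exceed it.

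**Figure D2:**
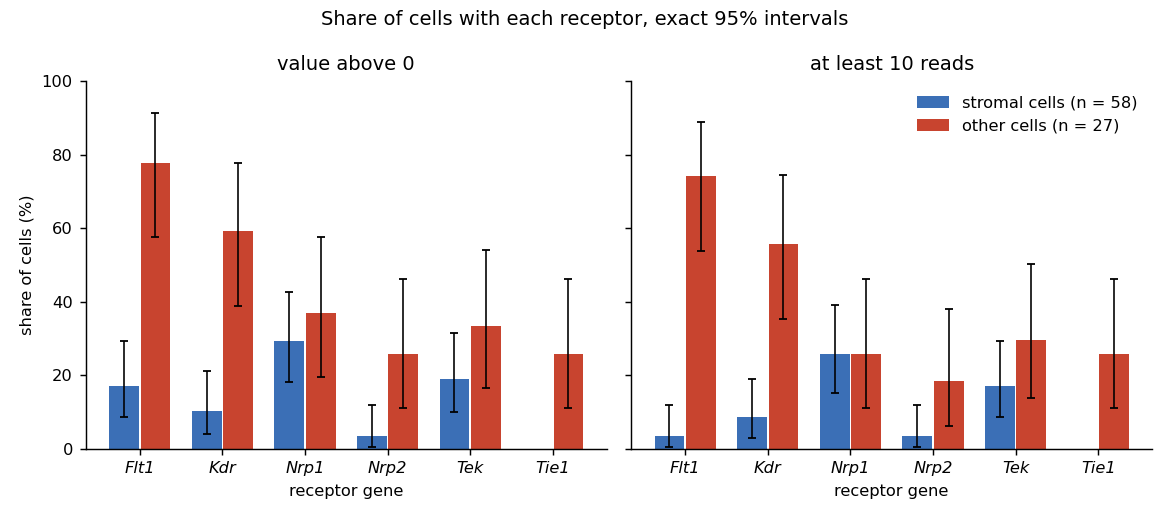
Share of stromal cells (blue, n = 58) and other cells (red, n = 27) with each receptor, as a percent of cells, above 0 on the left and at 10 reads or more on the right, with exact 95% intervals as error bars (none where the share was 0). Flt1 (74.1% and 3.45% at 10 reads) and Kdr (55.6% and 8.62%) were far apart, and Nrp1 was at 25.9% in both.

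Set beside the whole table, the receptors other than Nrp1 lay toward the other cells while 85.1% of genes were higher by share in the stromal cells and 14.7% in the other cells. Over 11478 genes, which were all those above 0 in 3 or more cells and held all 6 members, the median difference in share (other minus stromal) was -9.32 percentage points. Flt1 differed by 60.5 points and ranked 4 of all genes toward the other cells, and Kdr differed by 48.9 points and ranked 14. Tie1 (25.9 points, rank 90), Nrp2 (22.5, rank 107), Tek (14.4, rank 212) and Nrp1 (7.73, rank 484) followed. Thus 4 of the 6 receptors were at least 20 points higher in the other cells, compared with 1.11% of all genes, and none was that much higher in the stromal cells, compared with 25.4%. With detection at 10 reads Nrp2 dropped to 15.1 points, which left 3 of 6, compared with 1.03% of all genes at that level. By the mean deposited value, 5 of the 6 (all but Nrp1) were at least 4-fold higher in the other cells, compared with 10.5% of genes, and none in the stromal cells, compared with 46.2%. The stromal cells had more genes above 0, and the part of this in the shares was not tested. When every cell was thinned to 1146945 reads, the difference in share was 60.3 points for Flt1, 48.9 for Kdr and 9.45 for Nrp1.

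The levels could be compared between the receptors per exon length. Among the other cells with at least 10 reads, the median RPKM was 160 for Tek, 134 for Kdr, 130 for Nrp1, 60.1 for Flt1, 56.4 for Tie1 and 24.5 for Nrp2. Averaged over all 27 other cells, Kdr (127 ± 220, SD) and Tek (93.9 ± 243) were followed by Flt1 (49.1 ± 63.4), Nrp1 (42.2 ± 105), Tie1 (33.5 ± 84.5) and Nrp2 (15.6 ± 65.1). No neighbors in this order differed by more than their SD over cells. The length used for a gene was the union of all its annotated exons (13.50 kb for Flt1 and 4.71 kb for Tek), not a transcript length. The order depends on it. By reads, the medians of the other cells with the gene were 3113.0 for Kdr, 3029.0 for Nrp1, 2447.0 for Tek, 1605.5 for Flt1, 809.0 for Tie1 and 800.0 for Nrp2. The annotation is on another build than the one the reads were aligned to. The counting of isoforms, such as the soluble form of Flt1, is not given in the sources used here.

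Flt1 and Kdr shared cells in unequal amounts. Of the 27 other cells, 12 held both at 10 reads or more, 8 held Flt1 alone, 3 held Kdr alone and 4 held neither. Flt1 was thus in 80% of the 15 other cells with Kdr (51.9% to 95.7%), near its share of 74.1% in all other cells. Per length, Kdr was higher than Flt1 in 9 of the 12 cells with both, with a median ratio of 2.6. The ratio ranged from 0.0355 in cell 48 (2739 Flt1 reads and 65 Kdr reads) to 63.4 in cell 14 (359 and 15227). In cell 10 the 18725 reads of Kdr, the most of any cell, came without a read of Flt1. The loss of transcripts in single-cell libraries was not measured, so a cell without reads of a receptor may have held its RNA.

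The neuropilins shared cells with the VEGF receptors to the following extent. All 7 other cells with Nrp1 held Flt1 and 5 held Kdr, and all 5 other cells with Nrp2 held Kdr and 4 held Flt1, whereas 2 cells held both neuropilins. Flt1 was in 74.1% and Kdr in 55.6% of all other cells. In the stromal cells, where Flt1 was in 3.45% and Kdr in 8.62%, 1 of 15 cells with Nrp1 held Flt1 and 1 held Kdr, and both counts were cell 34. Of the 8 other cells with Tek, 7 held Flt1 and 6 held Kdr. Of the 7 with Tie1, 6 held Flt1, 3 held Kdr and 3 held Tek. Nrp1 and Tek shared 4 of the other cells. In the stromal cells the 15 cells with Nrp1 and the 10 with Tek had no cell in common at 10 reads, and 1 above 0. The interval of that share of 0% reached 21.8%, which includes the 17.2% of all stromal cells with Tek.

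Counted over all 6 receptors at 10 reads, 3 of the 27 other cells held none, 6 held 1, 6 held 2, 7 held 3, 3 held 4, 1 held 5 and 1 held all 6. At least 2 receptors were therefore found in 18 other cells (66.7%, 46% to 83.5%), compared with 3 stromal cells (5.17%, 1.08% to 14.4%), or 2 of 56 (3.57%) without cells 34 and 50. Among the stromal cells, 28 held none, 27 held 1, 2 held 2 and 1 (cell 34) held 3. The cell with all 6 receptors was cell 76, with 2623 reads of Flt1, 3113 of Kdr, 164 of Nrp1, 569 of Nrp2, 876 of Tek and 2675 of Tie1. The 3 other cells with none were cells 13, 67 and 89, which had 377, 285 and 405 genes above 0, whereas the other cells with a receptor had at least 854. At least 1 tyrosine kinase receptor was found in 24 of 27 other cells and 15 of 58 stromal cells, and at least 1 neuropilin in 10 and 16.

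**Figure D3:**
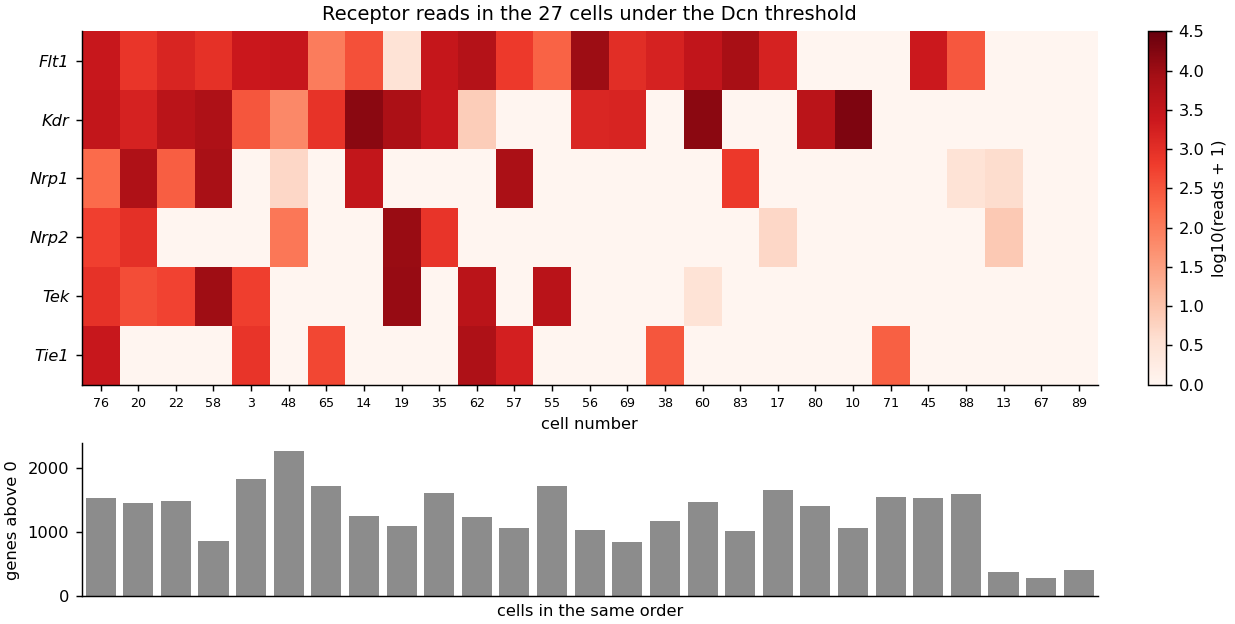
Reads of the 6 receptors (rows, log10(reads + 1) by shade) in the 27 other cells (columns, named by cell number and ordered by the number of receptors at 10 reads), above a bar plot of the genes above 0 in the same cells. Cell 76 on the left held all 6 receptors, and the 3 cells on the right with none had 377, 285 and 405 genes above 0.

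**Figure D4:**
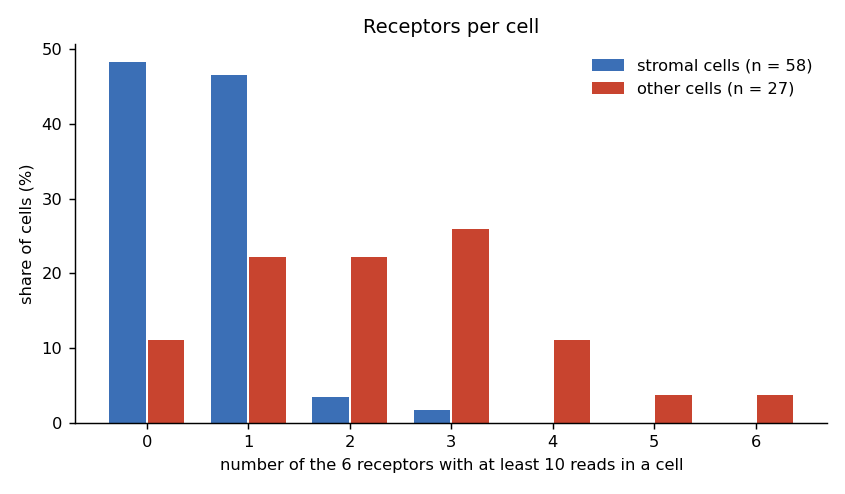
Share of stromal cells (blue, n = 58) and other cells (red, n = 27), in percent, by how many of the 6 receptors a cell held at 10 reads or more. Most stromal cells held none (48.3%) or 1 (46.6%), and the largest share of other cells held 3 (25.9%).

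The receptors were then set beside the endothelial markers within the other cells. In the 19 cells with at least 3 of the 11 markers at 100 reads, Kdr reached 10 reads in 14 (73.7%, 48.8% to 90.9%), compared with 1 of the 8 cells with fewer (12.5%, 0.316% to 52.7%). Nrp2 was found in 5 of 19 and 0 of 8, and Tek in 7 and 1. Flt1 was found in 15 of 19 (78.9%, 54.4% to 93.9%) and still in 5 of 8 (62.5%, 24.5% to 91.5%). Nrp1 was found in 5 and 2, and Tie1 in 4 and 3. The number of markers is a range and not a cell type, and the 3 cells with the fewest genes were all among the 8. Markers of veins (Vwf, Ackr1, Ephb4 and Nr2f2, at least 1 at 100 reads) were found in 4 of the 8 other cells with Tek and in 0 of the 19 without it. By the same count they were found in 4 of the 20 with Flt1 and 0 of the 7 without it, and markers of arteries in 4 of the 8 with Tek and 6 of the 19 without it. Markers of capillaries (Cd36, Gpihbp1, Car4, Rgcc and Aqp1) were found in 7 of the 8 with Tek and 17 of the 19 without it. Of the vein markers, Ephb4 reached 100 reads in 4 other cells, Vwf in 2, and Ackr1 and Nr2f2 in 1 each. The vein count of 4 cells was thus that of Ephb4 alone. In the stromal cells, Ackr1 reached 10 reads in 10 and Nr2f2 in 9. Of the lymphatic markers, Flt4 (VEGFR3), the VEGF-C receptor of the same family, was above 0 in 2 other cells and no stromal cell. Pdpn was above 0 in 18 stromal cells and no other cell, so no cell held both. Prox1, Lyve1, Ccl21a and Mmrn1 were not found in the matrix by these names.

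The genes that encode the ligands were then examined. Vegfa, the main ligand of Flt1 and Kdr, reached 10 reads in 23 of 58 stromal cells, with up to 2469 reads, and in none of the 27 other cells, where 1 cell held 4 reads. Vegfd, a ligand of VEGFR3 in the mouse, was above 0 in 13 stromal cells, Vegfb, a ligand of Flt1, in 7 and Vegfc in 4, and each was at 0 in the other cells. All 4 VEGF ligands in the table were higher in the stromal cells by share, as were 85.1% of all genes, with a median of -17.2 points beside -9.32 over all genes, and 2 of the 4 passed 20 points beside 25.4% of all genes. Of the 15 stromal cells with Nrp1, 7 held Vegfa at 10 reads. Of the 5 stromal cells with Kdr 1 did, and of the 2 with Flt1 none did.

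The angiopoietins were rare. Angpt1, the activating ligand of Tek, was above 0 in 3 stromal cells, Angpt4 in 2 stromal cells, and Angpt2, the context-dependent antagonist, in 2 other cells. Svep1, a matrix protein described as a ligand of Tie1, was common in the stromal cells, with 34 of 58 at 10 reads, and in the other cells it was above 0 in 2 and reached 10 reads in 0 of 27. Ptprb, the phosphatase VE-PTP that acts on Tek, went the other way. It reached 10 reads in 16 of 27 other cells and 1 of 58 stromal cells, although 13 stromal cells were above 0. In the other cells Ptprb shared 14 cells with Flt1, 11 with Kdr, 4 with Tek and 2 with Tie1. Among the 5 genes of this list above 0 in at least 3 cells, 1 (Ptprb) was higher in the other cells and 4 in the stromal cells, including Adam17 (10 stromal and 3 other cells) and Bace2 (9 and 2), beside 85.1% of all genes.

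Of the 5 class 3 semaphorins above 0 in at least 3 cells, which bind neuropilins, 4 were higher by share in the stromal cells beside 85.1% of all genes, and 2 passed 20 points beside 25.4%. Sema3c reached 10 reads in 30 of 58 stromal cells and 0 of 27 other cells, and Sema3d in 24 and 0. Sema3a was above 0 in 8 stromal cells and no other cell. Sema3g was the exception, above 0 in 5 other cells and 1 stromal cell. Of the 15 stromal cells with Nrp1, 7 also held Sema3d and 4 held Sema3c. Among the plexins, which pass on the semaphorin signal, Plxna2 was above 0 in 9 other cells and 8 stromal cells, and Plxnd1 in 2 and 7.

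**Figure D5:**
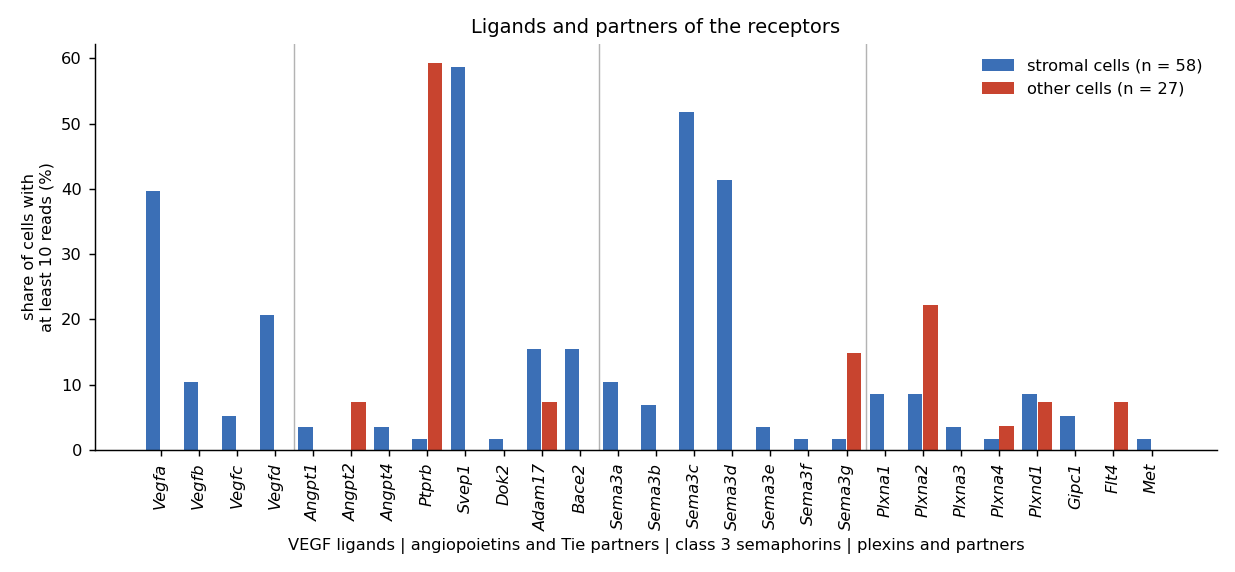
Share of stromal cells (blue, n = 58) and other cells (red, n = 27), in percent, with at least 10 reads of the ligands and partners of the receptors, grouped from left to right as VEGF ligands, angiopoietins and Tie partners, class 3 semaphorins, and plexins and partners. Vegfa (23 stromal cells), Svep1 (34), Sema3c (30) and Sema3d (24) were absent at this level from the other cells, and Ptprb was found in 16 other cells and 1 stromal cell.

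Of 24 VEGF signal transducers above 0 in at least 3 cells, 21 were higher by share in the stromal cells and 3 in the other cells, a split near that of all genes (85.1% higher in the stromal cells), with a median of -16.7 points beside -9.32. The 3 were Hspb1, a heat shock protein of the actin response to VEGF (23 of 27 other and 39 of 58 stromal cells), the adaptor Nck1 and the focal adhesion kinase Ptk2. Cdc42 (12 other and 49 stromal cells) and Pik3r1 (0 and 19) were among those that lay furthest to the stromal side. Of the genes known to rise after VEGF in endothelium, 4 were above 0 in at least 3 cells. By share 2 were higher in the other cells and 2 in the stromal cells, beside 14.7% and 85.1% of all genes. The 2 higher in the stromal cells both passed 20 points, beside 25.4% of all genes, and the median of the 4 was -13.8 points. Dll4, a Notch ligand of tip cells, was above 0 in 5 other cells and 1 stromal cell, and Nr4a1 in 1 and 29. Foxo1, a transcription factor restrained by Tek signaling, was above 0 in 6 other cells and 42 stromal cells. Of the related receptors, Pdgfra was above 0 in 5 other cells and 49 stromal cells.

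Across all 85 cells, the genes most like each receptor were ranked by Spearman's rho of the deposited values among 6127 genes above 0 in at least 10 cells. The most alike for Flt1 were Fabp4 (rho = 0.66), Cdh5 (0.66) and Cd36 (0.63), and for Kdr they were Cdh5 (0.64), Cd36 (0.59) and Cyyr1 (0.58). Flt1 and Kdr stood at 0.50 to each other. For Tie1 they were Gm14328 (0.51), Tmem88 (0.51) and Cd93 (0.49), and for Nrp2 Gm8979 (0.49), Tspan15 (0.41) and Rgcc (0.40). For Nrp1 the highest was H1f0 (0.38), followed by Tet2 and Igfbp7 (0.35 each), and for Tek it was Gm14044 (0.37), followed by Rpl37a (0.35) and Ly6c1 (0.34), which are weak values in sparse data. The rank values over all cells carry the division between stromal and other cells. Within the 27 other cells the rho of Flt1 and Kdr was 0.04, and of the 3 most alike genes only Cyyr1 for Kdr was again among the first 3.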

How the data were processed

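Single PV-ADSCs were sequenced as 1 SMART-seq v4 library per cell, and 85 of 94 described cells were used. The study's methods kept cells with more than 800000 aligned reads, which left 85 of 94, and the other 9 cells were not analysed here. Per the submitters' processing notes and the study's methods, the authors ran FastQC, HISAT2 2.0.5 (alignment to mm9), SAMtools 1.4 and StringTie 1.3.3, and applied scater for quality control and scaling. What the authors deposited is a table of signal values, namely read counts after normalization. The program that counted the reads is not given in the sources used here.

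Whole reads were recovered, by a step chosen after the values were seen, from the factor that each of 13 groups of genes carried in each cell (0.0157 to 94.5). Flt1 and Kdr shared a group, Tek shared one with Dcn, and Nrp2 and Tie1 carried no factor. Of 144272 scaled values, 20 were not whole within 1e-06 reads and were rounded, and 21 of 1105 factors rested on under 10 values each, which makes them less sure.

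The members, gene lists and markers were chosen with earlier results of these data known. The genes named are the members, the genes of the sort gate, up to 3 genes per list with the largest difference in share in either direction, and the 3 genes most alike per member. A gene that this rule names is not reported here. Genes that fall outside this rule, such as Col3a1 and Gpihbp1 in cell 50, and the pairs of a partner and a receptor in a cell were chosen after their values were seen. Ptprc, of the gate, was not analysed here. Means use log2(value + 1), and counts over all genes use the 11478 genes above 0 in at least 3 cells. Exon lengths, each the union of all annotated exons of a gene, came from GENCODE (GRCm38) and promoters from RefSeq, a later build than mm9. Alternatives were detection at 10 or 100 reads, thinning, other thresholds of Dcn or Col3a1, other pseudocounts, CPM of recovered reads, other filters and, chosen after seeing the data, Dcn in recovered reads and the removal of cell 34, cell 50 or both. Python 3.11.15, numpy 2.4.6, pandas 2.3.3, scipy 1.17.1 and matplotlib 3.10.9 were used.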

Additional observations from a re-analysis of the deposited data

How the results depend on the processing

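No paired analysis was possible because there was 1 group and no result came from a test. The differences in share of all 6 receptors kept their direction under every alternative tried. That of Flt1 ranged from 56 to 70.6 percentage points and that of Kdr from 42.7 to 54.9, whereas that of Nrp1 ranged from 0.0639 to 9.45. The difference in mean log2 level of Nrp1 turned from 0.21 to -0.29 when stromal cells were taken as Dcn of at least 100, which moved cell 20 (5840 reads of Nrp1) and cell 48 (4 reads) to the stromal side. With cells under 1000 genes left out, 100% of the remaining other cells held at least 1 receptor, compared with 92.6%. Genes at least 4-fold higher in the other cells numbered 1206, and 444 when genes had to be above 0 in at least 10 cells. Those higher in the stromal cells numbered 5298, and 2175 with that filter or 8048 with none. The number of genes tested differs between these filters. The median log2 difference of the plexins and neuropilin partners turned from -0.07 to 1.48 with that filter and to 0.20 with Dcn of at least 1000 recovered reads, where cell 50 counts among the other cells. Of the genes most like each receptor, few were shared between all cells and the other cells alone. When all cells were thinned to the smallest depth, the share of all cells with Flt1 moved to 32.9% and that with Nrp1 to 30.6%, whereas those of Nrp2 (10.6%) and Tie1 (8.24%) did not change. The number of cells limits the precision of Nrp2 and Tie1, each above 0 in fewer than 10 cells.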
